A study of Mus musculus with 8 samples.

Results

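The markers of liver sinusoidal endothelial cells described here are 10 genes, Pecam1, Stab1, Stab2, Lyve1, Clec4g, Kdr, Tek, Cdh5, Fcgr2b and Eng. They were taken by symbol from a table of read counts for 19267 mouse genes, and all 10 were found. All 10 were also among the 13993 genes with enough counts to be tested. Sinusoidal endothelial cells line the capillaries of the liver lobule. They differ from other capillary linings in that their pores lack a diaphragm and no continuous basement membrane lies beneath them. They clear waste molecules, modified proteins and small immune complexes from portal blood by receptor-mediated uptake, and in chronic liver injury they can lose these features. Of the 10 markers, Stab1, Stab2, Lyve1, Clec4g and Fcgr2b are uptake or binding receptors, Kdr, Tek and Eng are receptors or co-receptors for growth factors, and Pecam1 and Cdh5 are adhesion proteins of endothelial cell contacts. Some are not limited to these cells, since macrophages can carry Stab1 and Fcgr2b, lymphatic endothelium carries Lyve1, and platelets and leukocytes carry Pecam1.

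The libraries came from whole liver of male C57BL/6 mice aged 9 weeks, with 2 libraries in each of 4 groups. Elf4-/- denotes Elf4 fl/fl animals with Cre recombinase driven by the villin promoter, so that the transcription factor gene Elf4 is deleted in intestinal epithelium and not in the liver, and WT denotes animals that carry Cre without the deletion. A Lieber-DeCarli liquid diet was given for 21 days from the age of 6 weeks; in the EtOH groups it held alcohol at 5% (w/v), and in the Control groups maltose dextrin replaced the alcohol calories. The labels do not say whether replicates were separate animals, so p-values measure only the spread between these libraries, which may be technical. Library totals ranged from 6171051 to 9157362 counts. Counts were scaled to CPM (counts relative to the library total) with TMM factors, and counts were lowest for Lyve1, with 2 in its lowest library. Genes of the mitochondrial genome took 33.7% and 23.4% of counts for WT-Control, 12.5% and 10.8% for WT-EtOH, 18.7% and 18.5% for Elf4-/- Control, and 22.1% and 18.3% for Elf4-/- EtOH.

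In the GENCODE M21 annotation of GRCm38, all 10 markers are protein-coding genes. On the plus strand lie Tek (chromosome 4, 94739289 to 94874976), Cdh5 (chromosome 8, 104101625 to 104144511) and Eng (chromosome 2, 32646595 to 32682669). On the minus strand lie Pecam1 (chromosome 11, 106654217 to 106750628), Stab1 (chromosome 14, 31139013 to 31168641), Stab2 (chromosome 10, 86841198 to 87008025), Lyve1 (chromosome 7, 110850607 to 110863239), Clec4g (chromosome 8, 3707064 to 3720651), Kdr (chromosome 5, 75932827 to 75978458) and Fcgr2b (chromosome 1, 170958617 to 170976547). Exons of Stab1, Stab2, Clec4g and Eng overlap exons of a counted gene on the opposite strand, which are Nt5dc2, Gm16268, Gm16553 and Fpgs in the same order. Whether counting used strand was not stated, so reads in the shared exons could belong to either gene.

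RefSeq promoter sequence of GRCm38.p6 was matched to 7 of the 10 markers, and Pecam1, Lyve1 and Cdh5 had no entry. The 250 bases before the annotated start are shown 5′ to 3′ on the gene's strand for Kdr and Clec4g, which had the largest changes with alcohol among the 7, and for Eng, which had the smallest. Capitals mark GGAA or its reverse complement TTCC, the core bound by the ETS family of transcription factors, of which ELF4 is a member. The windows are chr5:75978456-75978705 on the minus strand for Kdr, chr8:3720652-3720901 on the minus strand for Clec4g and chr2:32646345-32646594 on the plus strand for Eng.
Kdr: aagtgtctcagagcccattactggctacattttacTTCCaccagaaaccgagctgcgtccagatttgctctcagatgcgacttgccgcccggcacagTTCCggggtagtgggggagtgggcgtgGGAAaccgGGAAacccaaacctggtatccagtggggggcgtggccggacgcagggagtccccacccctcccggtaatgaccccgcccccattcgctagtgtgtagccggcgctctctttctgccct
Clec4g: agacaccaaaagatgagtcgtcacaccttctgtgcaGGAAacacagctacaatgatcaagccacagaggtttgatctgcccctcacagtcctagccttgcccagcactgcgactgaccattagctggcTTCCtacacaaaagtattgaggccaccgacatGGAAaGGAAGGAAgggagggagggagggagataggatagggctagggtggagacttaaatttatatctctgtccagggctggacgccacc
Eng: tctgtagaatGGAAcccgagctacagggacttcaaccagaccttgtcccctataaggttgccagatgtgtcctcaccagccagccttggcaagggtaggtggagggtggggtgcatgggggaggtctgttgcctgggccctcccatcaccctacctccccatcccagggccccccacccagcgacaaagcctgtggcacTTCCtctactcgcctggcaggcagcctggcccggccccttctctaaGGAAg
This core occurred 4 times in the Kdr window, 5 times in that of Clec4g and 3 times in that of Eng. It was present on either strand in 7 of 7 marker windows and in 93.4% of 32851 windows of the same length, with a median of 4 occurrences per marker window and 3 over all windows, so its presence does not set the markers apart. The longer form CCGGAA, which contains the core, was counted on either strand. It was in 1 of 7 marker windows, that of Kdr, against 12% of all windows. In the Kdr window it occurred only as its reverse complement. The motif TATAAA, also counted on either strand, was in 1, that of Clec4g, against 12.4%. There it occurred only as its reverse complement, so it was absent from the strand shown. The GATA motif AGATAA and the E-box CACGTG were in 0 of 7, against 9.99% and 6.02% of all windows.

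Per kilobase of annotated exon, the levels of the markers can be set beside one another. In WT-EtOH, Clec4g was the highest at 29.3 ± 2.09 CPM per kb (SD, n = 2), followed by Eng at 20.6 ± 1.33 and Fcgr2b at 10.6 ± 1.62. Then came Stab1 at 8.52 ± 1.22, Stab2 at 8.34 ± 1.30, Cdh5 at 6.23 ± 0.477, Kdr at 5.23 ± 1.08, Lyve1 at 4.14 ± 0.0274, Pecam1 at 3.90 ± 0.983 and Tek at 3.64 ± 1.01 CPM per kb. From Fcgr2b downwards, neighbours in this order did not differ beyond their SDs, except Stab2 and Cdh5. In WT-Control the order was led by Eng at 13.7 ± 2.72 CPM per kb, with Clec4g at 4.83 ± 3.13 and Stab1 at 4.36 ± 1.67 behind it, and Lyve1 was the lowest at 0.382 ± 0.363.

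Alcohol feeding was first examined in WT livers, by comparing WT-EtOH with WT-Control. Of the 10 markers, 8 rose with alcohol (edgeR quasi-likelihood test, Benjamini-Hochberg adjusted over all genes, threshold 0.05), where 10.8% of all genes tested were called higher. Stab1 and Eng were higher by 0.97 and 0.58 on the log2 scale without passing. Both WT-EtOH libraries lay above both WT-Control libraries for each of the 10. Here and below, the share of all genes whose libraries separated in this way was not counted, so separation is given as description only. The median log2 fold change of the markers was 1.81, against 0.01 over all genes tested. In bulk tissue, more cells of a type and more RNA per cell cannot be told apart.

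Among the uptake receptors, Lyve1, a hyaluronan-binding receptor, had the largest change. Lyve1 counts were 10 and 2 for WT-Control, 96 and 118 for WT-EtOH, 25 and 12 for Elf4-/- Control, and 66 and 15 for Elf4-/- EtOH. The WT-EtOH libraries stood above all others in CPM, and of the Elf4-/- EtOH libraries 1 was close to them, at 10.5 CPM, while the other lay among the Control libraries, at 1.99. Lyve1 rose in WT by 3.42 ± 0.79 (SE) on the log2 scale, a 10.7-fold change with a 95% interval on the log2 scale from 1.66 to 5.19 (edgeR adjusted p = 0.0155).

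Clec4g, a C-type lectin receptor also called LSECtin, was measured at 17.3 and 6.44 CPM for WT-Control, 68.5 and 75.8 for WT-EtOH, 23.7 and 25.2 for Elf4-/- Control, and 47.5 and 30.0 for Elf4-/- EtOH. The 4 groups did not overlap, with WT-EtOH on top, then Elf4-/- EtOH, Elf4-/- Control and WT-Control. Clec4g rose in WT by 2.60 ± 0.38 (SE) on the log2 scale, a 6.07-fold change (edgeR adjusted p = 0.00301). The antisense gene Gm16553 that shares exons with it rose as well, from 1 and 5 counts in WT-Control to 60 and 77 in WT-EtOH (edgeR adjusted p = 0.00345), against 93 and 35 counts to 542 and 744 for Clec4g.

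Fcgr2b encodes the inhibitory Fc gamma receptor, which in sinusoidal cells takes up small immune complexes. It was at 26.1 and 8.65 CPM for WT-Control, 54.5 and 67.8 for WT-EtOH, 34.3 and 37.9 for Elf4-/- Control, and 32.2 and 32.6 for Elf4-/- EtOH. Under either diet the Elf4-/- libraries sat between the WT groups and close to each other. Its rise in WT was 1.82 ± 0.38 (SE) on the log2 scale, or 3.52-fold (edgeR adjusted p = 0.0108).

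The scavenger receptors stabilin-1 (Stab1) and stabilin-2 (Stab2), the latter a hyaluronan clearance receptor, had smaller log2 differences in WT than the receptors above. Stab2 was at 37.7 and 26.1 CPM for WT-Control, 65.0 and 81.1 for WT-EtOH, 56.3 and 52.5 for Elf4-/- Control, and 62.0 and 34.4 for Elf4-/- EtOH. It rose in WT by 1.2 ± 0.29 (SE) on the log2 scale (edgeR adjusted p = 0.0185), while the Elf4-/- EtOH libraries enclosed those of Elf4-/- Control. Stab1 was at 57.1 and 32.8 CPM for WT-Control, 78.8 and 96.5 for WT-EtOH, 61.7 and 89.7 for Elf4-/- Control, and 122 and 63.5 for Elf4-/- EtOH. Only the WT-Control libraries lay apart from the rest, and the WT difference of 0.97 ± 0.35 (SE) on the log2 scale had an edgeR adjusted p of 0.0782. DESeq2 called it, with an adjusted p of 0.0437. Nt5dc2, which overlaps Stab1, differed by 1.0 in WT (edgeR adjusted p = 0.0854), and Gm16268, which overlaps Stab2, had at most 38 counts in any library.

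**Figure D1:**
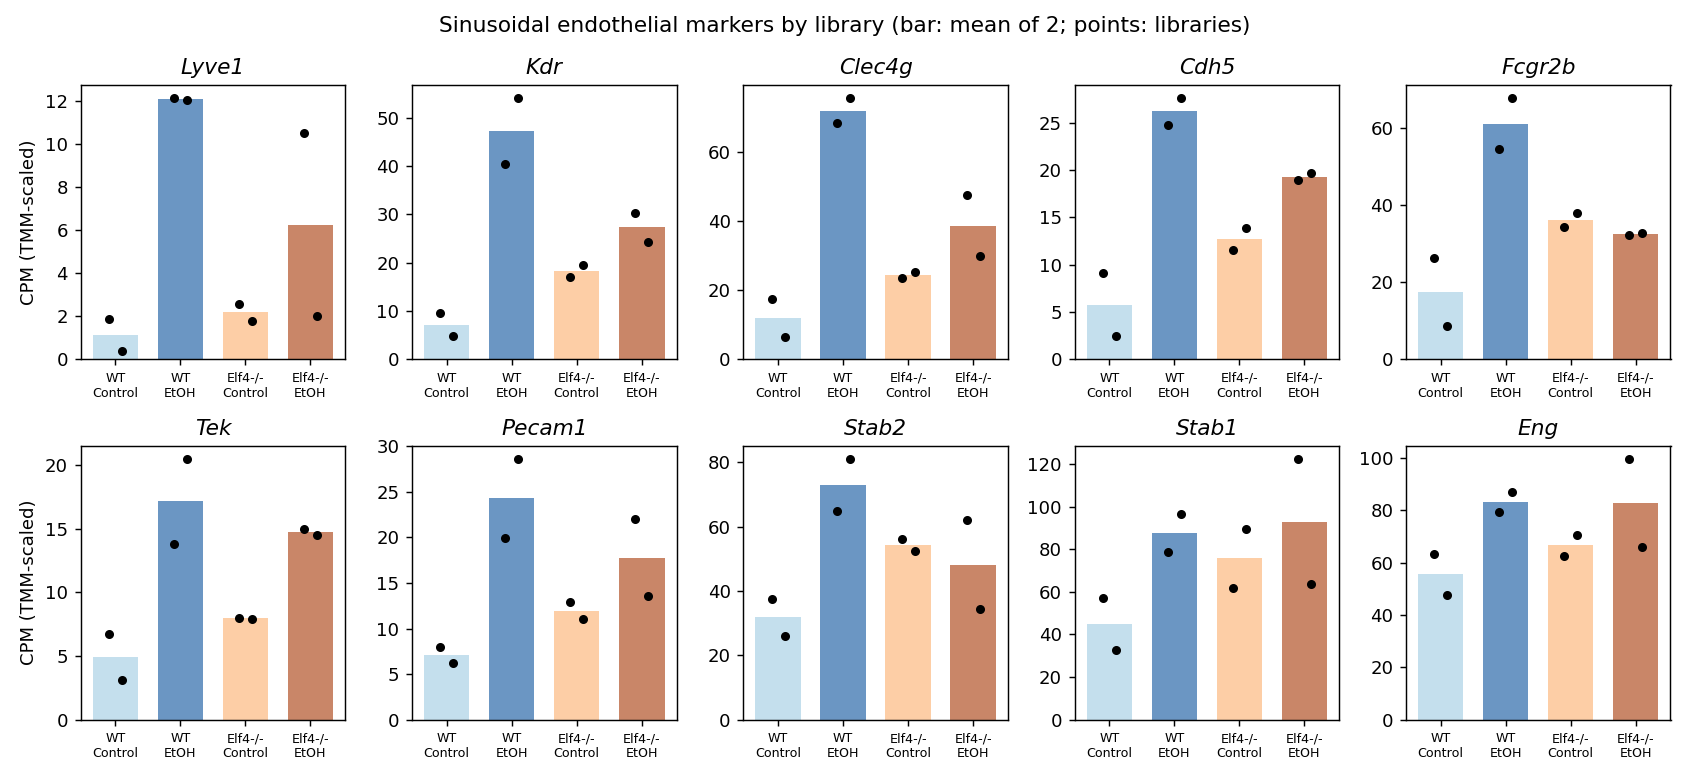
Level of each marker in CPM (TMM-scaled, linear axes from 0) in the 4 groups; bars are means of 2 libraries and points are the libraries. The WT-EtOH points lie above the WT-Control points in all 10 panels, and the Elf4-/- EtOH points are far apart for Lyve1 (10.5 and 1.99 CPM) and Stab1 (122 and 63.5 CPM).

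Of the growth factor receptors, Kdr, which encodes the main signalling receptor for VEGF-A (VEGFR2), showed the smallest adjusted p of the markers. Its CPM values were 9.51 and 4.78 for WT-Control, 40.3 and 54.1 for WT-EtOH, 16.9 and 19.4 for Elf4-/- Control, and 30.3 and 24.3 for Elf4-/- EtOH. The 4 groups were again separate, in the same order as for Clec4g. Kdr rose in WT by 2.72 ± 0.31 (SE) on the log2 scale, a 6.61-fold change (edgeR adjusted p = 0.00147).

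Tek encodes TIE2, the receptor for angiopoietins. It was at 6.71 and 3.13 CPM for WT-Control, 13.8 and 20.5 for WT-EtOH, 7.99 and 7.91 for Elf4-/- Control, and 15.0 and 14.5 for Elf4-/- EtOH. The EtOH libraries of both genotypes overlapped and stood above all Control libraries. In WT the rise was 1.80 ± 0.36 (SE) on the log2 scale (edgeR adjusted p = 0.00840). Eng, the endoglin co-receptor for BMP9 and BMP10, was at 63.4 and 47.8 CPM for WT-Control, 79.5 and 87.1 for WT-EtOH, 62.7 and 70.6 for Elf4-/- Control, and 99.8 and 65.9 for Elf4-/- EtOH. It had the smallest WT difference of the markers, 0.58 ± 0.24 (SE) on the log2 scale (edgeR adjusted p = 0.107). Fpgs, which shares exons with Eng on the other strand, had at least 883 counts in every library and differed by −0.38 in WT (edgeR adjusted p = 0.378).

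Both adhesion genes rose in WT. Cdh5, which encodes VE-cadherin of the endothelial adherens junction, was at 9.14 and 2.39 CPM for WT-Control, 24.8 and 27.6 for WT-EtOH, 11.6 and 13.9 for Elf4-/- Control, and 19.0 and 19.6 for Elf4-/- EtOH. Its groups were separate in the order seen for Clec4g and Kdr, and its WT rise was 2.18 ± 0.43 (SE) on the log2 scale (edgeR adjusted p = 0.00810). Pecam1 (CD31) was at 8.02 and 6.26 CPM for WT-Control, 20.0 and 28.6 for WT-EtOH, 12.9 and 11 for Elf4-/- Control, and 22.0 and 13.5 for Elf4-/- EtOH. The EtOH groups of the genotypes overlapped for Pecam1, and its WT rise was 1.77 ± 0.31 (SE) on the log2 scale (edgeR adjusted p = 0.00549).

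The number of markers called in WT depended on single libraries, although the sign was positive for all 10 under each of 16 alternatives. Without WT-EtOH replicate 2, Kdr (adjusted p = 0.0166) and Clec4g (adjusted p = 0.0282) were called by edgeR and the other 8 were not, where 2.55% of all genes were called higher. Lyve1 and Stab2 also missed the threshold without WT-Control replicate 2 (edgeR adjusted p = 0.0942 and 0.112) and without WT-EtOH replicate 1 (edgeR adjusted p = 0.0622 and 0.0564). Without either of the Elf4-/- EtOH libraries, 10 of 10 were called by edgeR, where 13% of all genes were called higher. By DESeq2 9 of 10 were called, all but Eng, where it called 9.94% of all genes higher. With libraries scaled by their totals alone, 10 of 10 were called and 24.5% of all genes were called higher.

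In Elf4-/- livers, alcohol feeding was examined by comparing Elf4-/- EtOH with Elf4-/- Control. None of the 10 markers passed in edgeR, where 2.89% of all genes were called, and DESeq2 likewise called 0, with 6.56% of all genes called. At an unadjusted p under 0.05, edgeR passed 1 marker, Tek, where 10.9% of all genes were higher at that threshold. The markers had a median log2 fold change of 0.57, with 8 of 10 positive, but 0.08 without Elf4-/- EtOH replicate 1. Tek differed by 0.89 ± 0.33 (SE) on the log2 scale (edgeR adjusted p = 0.166), and its 2 Elf4-/- EtOH libraries lay above both Elf4-/- Control libraries. Kdr, Clec4g, Cdh5 and Pecam1 were also higher in both Elf4-/- EtOH libraries than in either Elf4-/- Control library, with log2 differences of 0.59, 0.66, 0.61 and 0.56 and lower 95% bounds of −0.04, −0.13, −0.26 and −0.10. Fcgr2b at −0.15 (95% interval −0.97 to 0.66) and Stab2 at −0.18 (−0.81 to 0.46) were the negative values. For Fcgr2b both Elf4-/- EtOH libraries lay below both Elf4-/- Control libraries.

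Lyve1, Stab1 and Eng took their sign in Elf4-/- mice from Elf4-/- EtOH replicate 1. For Lyve1 the log2 difference was 1.47 ± 0.70 (SE, edgeR adjusted p = 0.265), −0.15 without that library, and 2.22 without Elf4-/- EtOH replicate 2, where it passed (edgeR adjusted p = 0.0159) and 5.58% of all genes were called higher. Stab1 went from 0.30 to −0.25 and Eng from 0.31 to −0.01 when replicate 1 was left out. Stab2 went from −0.18 to 0.17 when replicate 2 was left out.

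**Figure D2:**
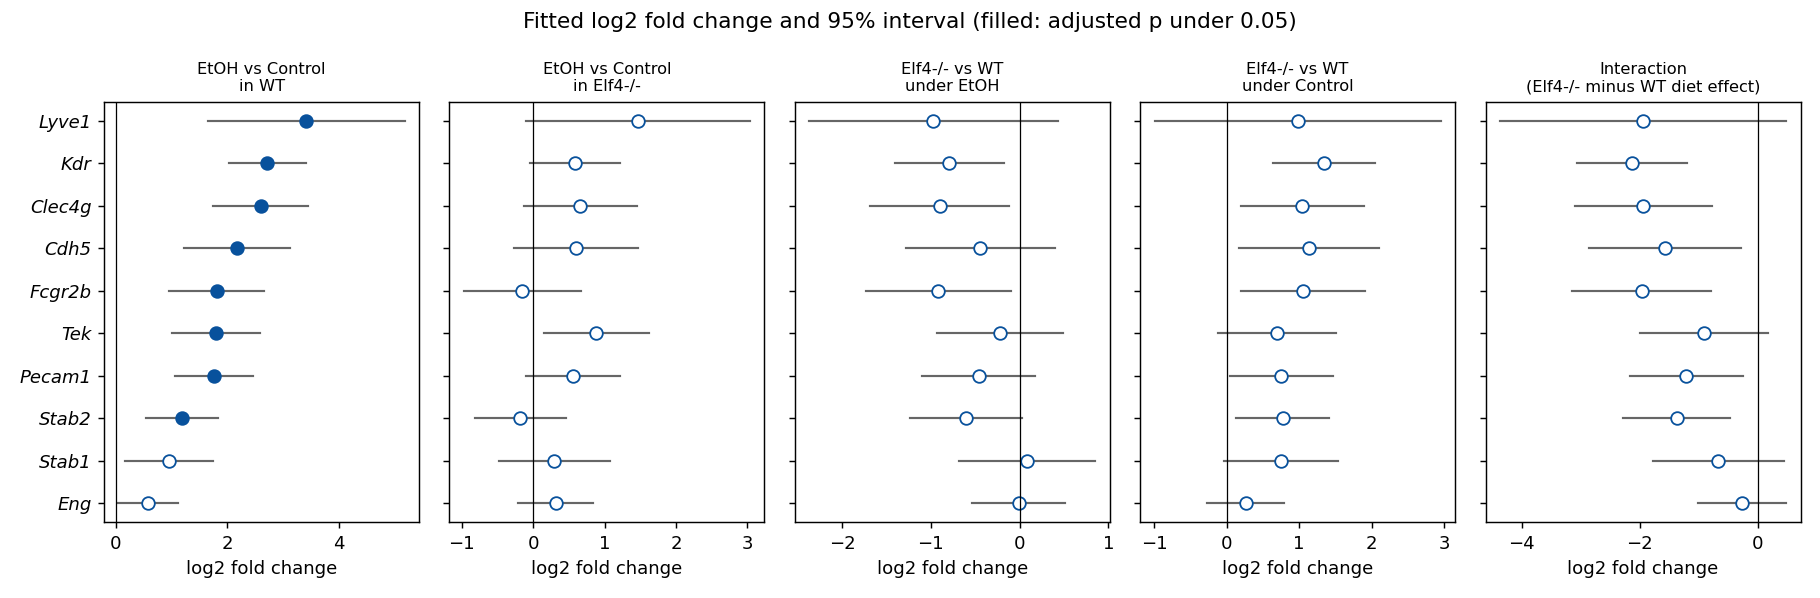
Fitted log2 fold change (points) and 95% interval (lines) of each marker in the 5 comparisons, with filled points at an edgeR adjusted p under 0.05. Filled points occur in the WT diet comparison alone, for 8 of 10 markers, and the interaction estimates all lie below 0.

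The difference between the diet effects was tested as the interaction of genotype and diet. All 10 estimates were negative, with a median of −1.48 against 0.00 over all genes tested, so each estimated diet effect was smaller in Elf4-/- than in WT livers. In edgeR 0 markers passed after adjustment, where 0% of all genes did, and 6 passed at an unadjusted p under 0.05, against 5.15% of all genes lower at that threshold. The 6 were Kdr, Clec4g, Fcgr2b, Stab2, Pecam1 and Cdh5. Kdr had the lowest value, −2.14 ± 0.42 (SE, edgeR adjusted p = 0.220), followed by Fcgr2b at −1.97 ± 0.53 and Clec4g at −1.94 ± 0.52 (edgeR adjusted p = 0.281 and 0.279). DESeq2 called these 3 (adjusted p = 0.00615, 0.0382 and 0.0393), where it called 0.272% of all genes lower, and gave no adjusted p for Lyve1. Thus the difference between genotypes in the alcohol response of Kdr, Fcgr2b and Clec4g rested on the choice of test. Eng had the smallest value, −0.27, with a 95% interval from −1.02 to 0.48.

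Livers of the genotypes were then compared under each diet. The diet and genotype comparisons share libraries, so their values are not independent of each other. Under EtOH, edgeR called 0 of 10 markers, where 0.143% of all genes were called, and DESeq2 called 0, where 1.47% were. The median was −0.53 on the log2 scale and 9 of 10 markers were lower in Elf4-/- EtOH, all but Stab1. At an unadjusted p under 0.05 edgeR passed 3, Kdr at −0.79 (95% interval −1.41 to −0.18), Clec4g at −0.90 (−1.68 to −0.12) and Fcgr2b at −0.92 (−1.73 to −0.10), against 4.32% of all genes lower at that threshold. Lyve1 and Cdh5 were at −0.97 and −0.44, and Stab2 at −0.60, with libraries that did not overlap between the genotypes. Eng at −0.01 (−0.54 to 0.52), Stab1 at 0.08 (−0.69 to 0.86) and Tek at −0.22 (−0.93 to 0.49) had the values nearest to 0. Each changed sign with 1 library left out, Stab1 to −0.06 when WT-EtOH replicate 1 was omitted and to −0.46 when Elf4-/- EtOH replicate 1 was, Tek to 0.09 without WT-EtOH replicate 2, and Eng to 0.05 without that library and 0.25 without Elf4-/- EtOH replicate 2.

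Under the control diet the order was the other way round. All 10 markers were higher in Elf4-/- Control than in WT-Control, with a median log2 difference of 0.87. None was called by edgeR, where 0.0143% of all genes were called, nor by DESeq2, where 0.709% were. At an unadjusted p under 0.05 edgeR passed 6, the same ones as in the interaction, against 4.37% of all genes higher at that threshold. Kdr differed by 1.34 ± 0.31 (SE, 95% interval 0.64 to 2.04, edgeR adjusted p = 0.299), Cdh5 by 1.14 ± 0.43, Fcgr2b by 1.05 ± 0.38 and Clec4g by 1.04 ± 0.38. In WT-Control, replicate 2 was the lower library for each of the 10 markers, at 2.39 against 9.14 CPM for Cdh5 and at 8.65 against 26.1 for Fcgr2b. Without WT-Control replicate 2 the median difference was 0.48, and without replicate 1 it was 1.63.

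**Figure D3:**
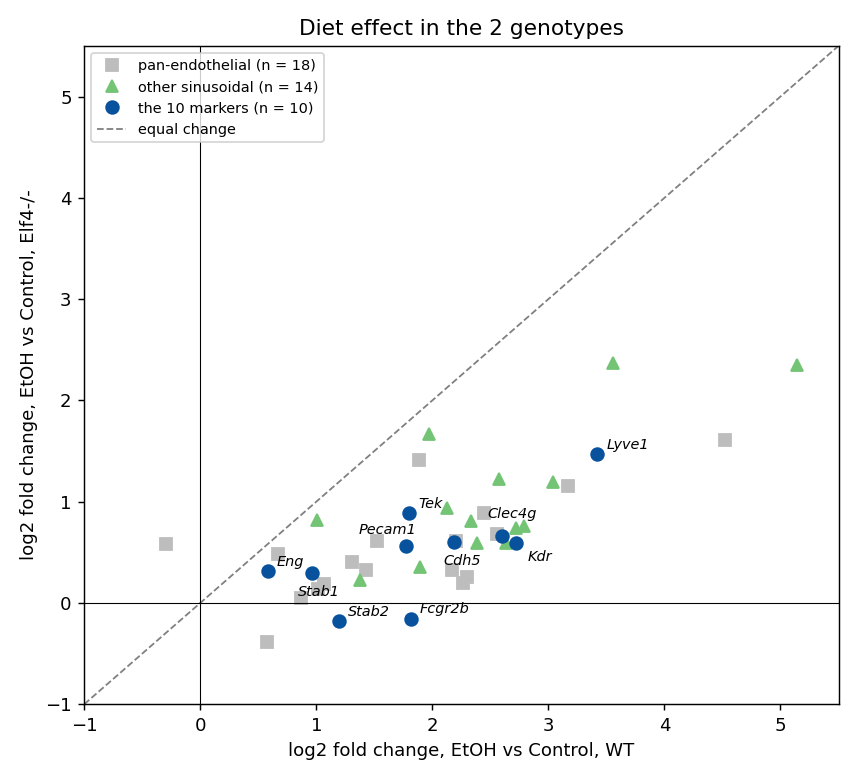
Log2 fold change with alcohol in WT (horizontal axis) and Elf4-/- (vertical axis) for the 10 markers (circles), 14 other sinusoidal genes (triangles) and 18 pan-endothelial genes (squares); the dashed line marks equal change. All 10 markers lie below the line, with Kdr at 2.72 and 0.59 and Fcgr2b at 1.82 and −0.15.

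Other genes of the same cells were read as a list, chosen like the markers with earlier results of these data known. Of 14 other sinusoidal genes, 11 rose in WT with alcohol, with a median log2 fold change of 2.48 (edgeR quasi-likelihood test). For the lists of this paragraph, the share of all genes called was 10.8% higher in WT and 2.89% in either direction in Elf4-/- livers. Dnase1l3, which encodes a secreted DNase, rose by 2.72 ± 0.35 (SE, edgeR adjusted p = 0.00195), from 6.90 and 4.05 CPM to 32.9 and 39.3. The atypical receptor gene Gpr182 rose by 2.33 and Oit3 by 3.04 (edgeR adjusted p = 0.00299 and 0.00281). Rspo3, an enhancer of WNT signalling, went from 3 and 1 counts under control diet to 94 and 152 with alcohol in WT (edgeR adjusted p = 0.000984). It was also the list's 1 call in Elf4-/- livers, from 21 and 15 to 86 and 67 counts, or 2.35 ± 0.38 (SE) on the log2 scale (edgeR adjusted p = 0.0183). All 14 genes of the list had positive log2 differences in Elf4-/- livers, with a median of 0.82. Of these, 8 were higher at an edgeR unadjusted p under 0.05, where 10.9% of all genes were. Of 18 genes shared by most endothelia, 10 rose in WT, with a median log2 fold change of 1.70, among them Egfl7 (1.52), Esam (2.20) and Ptprb (2.56), and 0 were called in Elf4-/- livers, where 3 were higher at an unadjusted p under 0.05. Of 10 genes listed for capillaries and larger vessels, 5 rose in WT, among them Vwf (2.05), Plvap (1.82) and Aqp1 (3.25). None of this list rose in Elf4-/- livers, with 4 at an unadjusted p under 0.05.

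The ligands and partners of the marker receptors did not all move with them. Vegfa, the main ligand of the Kdr product, was at 360 and 406 CPM under control diet and 240 and 319 with alcohol in WT, a log2 difference of −0.45 ± 0.31 (SE, edgeR adjusted p = 0.323), and Vegfc was at 0.20 (adjusted p = 0.843). In Elf4-/- livers Vegfa was at 611 and 460 CPM under control diet and 198 and 366 with alcohol. Of 10 tested genes of the VEGF and angiopoietin pathways, 3 rose in WT, where 10.8% of all genes did. They were Nrp2 by 2.25, Ptprb by 2.56 and Tie1, which encodes the partner of TIE2, by 1.01. Ptprb, Tie1 and Flt1 are also on the list of genes shared by most endothelia. Nrp1 was lower with alcohol in WT, at 137 and 156 CPM against 299 and 238 under control diet. Flt1, which encodes VEGFR1, was at 1.30 ± 0.62 (SE, edgeR adjusted p = 0.159). The angiopoietins Angpt1 and Angpt2 had at most 11 and 8 counts in a library and were not tested. Of 14 genes around endoglin, 3 rose in WT, against the same 10.8% of all genes. Gdf2, which encodes BMP9, rose most, from 17 and 10 counts to 153 and 205, or 3.0 ± 0.40 (SE) on the log2 scale (edgeR adjusted p = 0.00231), and it was the 1 gene of this list called in Elf4-/- livers, at 1.47 ± 0.34 and just inside the threshold (edgeR adjusted p = 0.04997). Tgfbr2 and Bmpr2 rose in WT by 1.42 and 0.81, and the receptor gene Acvrl1 was at 0.95 ± 0.53 (edgeR adjusted p = 0.227). Of the adhesion genes induced on activated endothelium, Vcam1 rose in WT by 2.37 and Selp fell by 2.29 (edgeR adjusted p = 0.00248 and 0.00147), Icam1 was at 0.21 (adjusted p = 0.622), and Sele had at most 4 counts in a library.

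With alcohol in WT, markers of Kupffer and stellate cells rose as the endothelial markers did. All 12 Kupffer cell genes rose in WT with alcohol, where 10.8% of all genes did, their median log2 fold change being 1.95. Their summed level went from 310 and 236 CPM in WT-Control to 883 and 773 in WT-EtOH. In Elf4-/- livers it was 232 and 222 under control diet and 353 and 313 with alcohol. There 2 of the 12 genes were called higher with alcohol, and 8 were higher at an edgeR unadjusted p under 0.05. Over all genes, 2.89% were called in either direction and 10.9% were higher at the unadjusted threshold. Of 10 stellate cell genes, 7 rose in WT, against the same 10.8% of all genes, and their sum went from 146 and 56.5 CPM to 392 and 548. In Elf4-/- livers this sum was 231 and 193 under control diet and 472 and 314 with alcohol. There 0 of the 10 genes were called, and 3 were higher at an edgeR unadjusted p under 0.05. The 10 endothelial markers together had 237 and 139 CPM for WT-Control, 457 and 551 for WT-EtOH, 291 and 330 for Elf4-/- Control, and 461 and 300 for Elf4-/- EtOH. The ratio of these sums, EtOH to Control, was thus 2.69 in WT and 1.23 in Elf4-/- livers. For the Kupffer cell genes it was 3.03 and 1.47, and for the stellate cell genes 4.65 and 1.85. Sums weigh the most abundant genes most. Median log2 fold changes with alcohol in WT were 1.81, 1.95 and 1.84 for the endothelial, Kupffer cell and stellate cell lists. In Elf4-/- livers these medians were 0.57, 0.79 and 0.50. Between genotypes under the control diet, where all 10 endothelial markers had positive log2 differences, 3 of 12 Kupffer cell genes and 9 of 10 stellate cell genes did, with medians of −0.24 and 0.997. Hepatocyte genes had a median log2 fold change with alcohol of −0.17 in WT and −0.04 in Elf4-/- livers, with 0 of 8 called higher and 1 lower in WT, Apoa1 by 2.34. Their summed level had ratios of 0.591 and 0.717, a sum made up mostly of Alb and Apoa1. Under EtOH all 12 Kupffer cell genes were lower in Elf4-/- than in WT livers, with a median of −1.35, against −0.53 for the endothelial markers. All 12 passed at an edgeR unadjusted p under 0.05, against 4.32% of all genes lower at that threshold. Clec4f and Cd5l were called (edgeR adjusted p = 0.0418 and 0.0268), where 0.143% of all genes were called.

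Lists for other cells, some of which share single markers, had fewer genes called, and these lists also had fewer genes tested. Of 6 tested leukocyte genes 1 was called higher in WT, Ptprc by 1.46, where 10.8% of all genes were. All 6 had positive log2 differences there, with a median of 1.45, and 3 were higher at an edgeR unadjusted p under 0.05. The leukocyte sum lay between 15.5 and 20.5 CPM in WT-Control and between 42.6 and 44.0 in WT-EtOH. The 4 platelet genes summed to between 5.97 and 11.3 CPM over all libraries, with 0 of 1 tested called in WT and 0 at an unadjusted p under 0.05. Of 5 red cell genes 2 were lower in WT-EtOH, Alas2 by 1.81 and Hba-a2 by 1.53, where 10.8% of all genes were called lower. Of the 5 lymphatic markers, Pdpn and Mmrn1 had at most 8 and 9 counts in a library and were not tested, and Ccl21a had at most 33. Prox1, which hepatocytes also express, had between 534 and 1388 counts and was at −0.74 in WT (edgeR adjusted p = 0.0732), and Reln, which is also on the stellate cell list, rose by 1.54. Of 5 cholangiocyte genes 0 were called in WT, and at an edgeR unadjusted p under 0.05 1 was higher and 2 were lower. By group, the share of mitochondrial genome counts was highest in WT-Control and lowest in WT-EtOH, the reverse of the endothelial markers in these WT groups. The Elf4-/- groups overlapped in this share, at 18.7% and 18.5% for Control and 22.1% and 18.3% for EtOH. Within WT-Control and within Elf4-/- EtOH, however, the library with the larger share also had the higher mean of the markers. With these genes left out of the counts the same 8 markers were called in WT, with a median of 1.80. What set the mitochondrial share was not tested. The part that other cell types had in the endothelial marker differences was not tested.

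**Figure D4:**
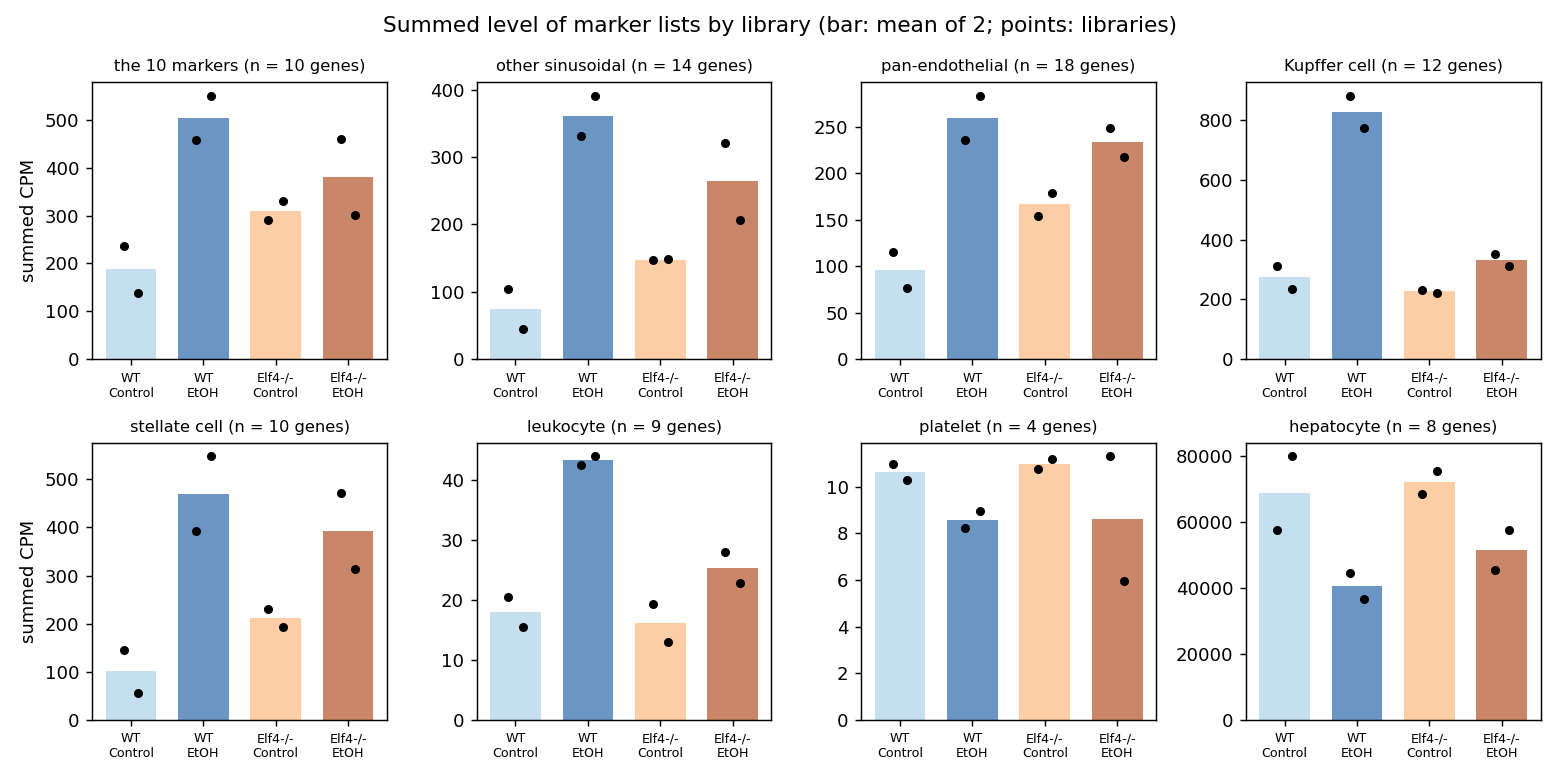
Summed CPM of the 10 markers and of 7 other gene lists in each library (linear axes from 0); bars are means of 2 libraries, points are libraries, and n is the number of list genes in the table. The Kupffer cell sum reaches 883 and 773 CPM in WT-EtOH and stays between 222 and 353 in the Elf4-/- libraries, while the hepatocyte sum, made up mostly of Alb and Apoa1, is lower in both EtOH groups although the list's median log2 fold change is −0.17 in WT and −0.04 in Elf4-/- livers.

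Across the 8 libraries the markers followed one another. The correlation (Pearson's r over 8 libraries, which share their library scaling) of each marker with the mean of the other 9 ran from 0.872 for Stab1 to 0.993 for Clec4g. The mean of the 10, each centred on its own mean over libraries on the log2 CPM scale, was highest in WT-EtOH at 0.74 and 1.03, followed by Elf4-/- EtOH at 0.63 and 0.00, Elf4-/- Control at −0.15 and −0.09, and WT-Control at −0.55 and −1.61. Of 9389 other genes that averaged 50 counts or more, the 5 closest to this pattern were Ets1 (r = 0.992), Mrc1 (0.990), Chst15 (0.989), Plxnc1 (0.987) and Prelp (0.987). Ets1 encodes an ETS family factor of endothelial cells and lymphocytes, and Mrc1 the mannose receptor of sinusoidal endothelium and macrophages. Ets1 went from 8.35 ± 4.27 CPM (SD, n = 2) in WT-Control to 21.8 ± 2.27 in WT-EtOH, and was at 12.3 ± 0.298 in Elf4-/- Control and 16.3 ± 4.67 in Elf4-/- EtOH. Mrc1 went from 13.6 ± 9.30 to 70.7 ± 4.82 CPM in WT and was at 27.4 ± 2.87 and 41.4 ± 8.63 in Elf4-/- livers.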

How the data were processed

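The 8 libraries held RNA of mouse liver. Per the study's methods, paired-end reads were mapped to mm10 with HISAT2, sorted with SAMtools and counted with HTSeq, and DESeq2 was used for testing. Versions, the annotation and the strand setting are not given in the sources used here. Values in the deposited table are raw counts, in whole numbers, per gene symbol, which the authors had not normalized. Its 968 blank lines were left out, which left 19267 genes.

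Genes were filtered with filterByExpr by group, leaving 13993, and scaled by TMM; a prior count of 2 was used for log2 CPM. A model of 4 groups was fitted to all 8 libraries in edgeR 4.0.16 (R 4.3.3) without covariates, and 5 contrasts were tested with the quasi-likelihood test at a Benjamini-Hochberg adjusted p under 0.05 over all genes tested. The common biological coefficient of variation was 22.7%. Library totals of 6171051 to 9157362 counts set the counting precision, and PCR copies were not separated. The fit was tested on simulated data.

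Alternatives were DESeq2 1.42.0 (Wald test), its size factors, library totals alone, mitochondrial genes left out, no filter, a mean of at least 10 counts, only the 2 groups compared, a replicate block, and each library left out. The markers, gene lists and tests were chosen with earlier results of these data known. Genes named were the 10 markers, up to 4 genes of each other list by smallest adjusted p among called genes averaging 50 counts or more, and 8 ligands, receptors and partners of the markers. Genes that overlap a marker, and Nrp1, Icam1, Sele, Hba-a2, Pdpn and Mmrn1, were named after their values were seen. Promoters came from RefSeq (GRCm38.p6) and gene positions from GENCODE M21.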

Additional observations from a re-analysis of the deposited data

How the results depend on the processing

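The sign of the alcohol effect in WT was positive for all 10 markers under the 16 alternatives, and Kdr and Clec4g were called under each. With libraries scaled by their totals alone, the median of the markers was 2.26 in WT, where the median of all genes moved to 0.44 and the split of called genes from 1518 higher and 1507 lower to 3422 and 634; the median interaction was −1.96, and Stab1 was at −0.17 between genotypes under EtOH. DESeq2 called 3 markers in the interaction.

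Leaving out 1 library at a time gave between 2 and 10 markers called in WT (median 1.44 to 2.63), 0 to 1 in Elf4-/- livers (median 0.079 to 0.70), and 0 to 1 in the interaction (median −2.19 to −1.09), where Stab2 was called without Elf4-/- EtOH replicate 1 (−1.86, edgeR adjusted p = 0.0473; 0.143% of all genes were called lower there). All 10 were called in WT without either Elf4-/- EtOH library, where calls over all genes also rose, from 10.8% to 13% higher. The median between genotypes under the control diet ran from 0.48 to 1.63. In Elf4-/- livers the diet effect ran from −0.25 to 0.68 for Stab1, −0.66 to 0.17 for Stab2, −0.15 to 2.22 for Lyve1 and −0.014 to 0.56 for Eng. Between genotypes under EtOH it ran from −0.46 to 0.47 for Stab1, −0.48 to 0.092 for Tek and −0.33 to 0.25 for Eng. The cause of these shifts was not tested.

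No pairing of libraries by replicate number was seen, since deviations of same-numbered libraries correlated between −0.134 and 0.114. The mice were pair-fed per the study's methods, and with 2 libraries a group this check cannot exclude pairing. With a replicate block, 8 markers were called in WT with a median of 1.84. Over all genes, the block gave 240 calls in Elf4-/- livers against 404 and 10 between genotypes under EtOH against 20. DESeq2 gave 811 and 182 in the same comparisons, 78 against 2 under the control diet and 107 against 0 in the interaction. A model of only the 2 groups compared gave 40, 0 and 22 in the first 3. Without the filter, 50, 14 and 7 genes were called between genotypes under EtOH, under the control diet and in the interaction. Lyve1, with the fewest counts of the markers, had the widest 95% interval in the WT comparison, from 1.66 to 5.19 on the log2 scale, which includes replicate spread as well as counting error.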
